A study of Mus musculus with 6 samples.

Results

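Transthyretin (Ttr), the carrier of thyroid hormone and retinol in cerebrospinal fluid and blood, was examined with 8 genes that move, activate, inactivate, bind or answer to thyroid hormone. The 9 genes, each with 1 locus among the 47086 loci of the deposited table, were taken by symbol. Ttr was chosen by its FPKM, which differed between the genotypes in these same 6 libraries, so its values are given as a description with no test. The other 8 were chosen for what they do in the handling of thyroid hormone, with earlier results of these data known. They are Slco1c1 (transport), Dio2 and Dio3 (deiodination), Crym (binding inside the cell), Thra and Thrb (nuclear receptors), and Klf9 and Hr (target genes). The question was whether the Ttr difference goes with a difference in any of these steps.

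Total RNA came from primary hippocampal cultures of C57BL/6 mice after 14 days in vitro, labelled as hippocampal neurons, with 3 wild type (WT) and 3 *Fmr1* knockout (KO, Fmr1-KO in the labels) libraries. The *Fmr1* product FMRP binds messenger RNA and regulates its translation, and its loss causes fragile X syndrome. The cultures were made from newborn pups. For its mice in general the study's methods give male KO animals and WT littermates, bred from heterozygous mothers and WT fathers, and the sources used here do not tie a sex or a litter to the pups of any library. No label ties a library to an animal or a culture, so the p-values measure the spread between these libraries only, which may be technical. Values are FPKM, by name fragments scaled by transcript length and mapped reads, and any further scaling between libraries is not given.

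The FPKM of a library summed to between 1803679 and 2303083, of which the short neuronal RNA Bc1 took 73.7% to 80.6%, and the absolute depth is unknown. Fmr1 itself was at 19.0, 19.5 and 19.7 FPKM in WT and at 23.1, 21.8 and 18.5 FPKM in the libraries labelled KO. It was therefore not lower under the KO label, with a log2 change of 0.12 (SE 0.08, limma with Benjamini-Hochberg adjustment, adjusted p = 0.536). A value for the whole gene cannot show whether the transcript was intact, and KO stands here for what the labels say. In hippocampus from mice, not in these libraries, the study found FMRP by Western blot in WT but not KO samples. It also checked the genotypes of those samples by PCR. Neuronal markers were abundant, with Camk2a at 480 to 508 FPKM in WT and 513 to 592 in KO. Astrocyte markers were as plain, with the intermediate filament gene Gfap at 542 to 633 FPKM in WT and 597 to 675 in KO, so the cultures were not of neurons alone.

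Thyroid hormone reaches the brain mostly as thyroxine, carried by proteins such as transthyretin, which the choroid plexus makes in quantity and which also holds the retinol carrier encoded by Rbp4. Transporters take thyroxine into cells, and in the brain astrocytes are the main cells that convert it to the active hormone, triiodothyronine, through the deiodinase encoded by Dio2. The enzyme encoded by Dio3 inactivates both hormones, and triiodothyronine acts in neurons through nuclear receptors that sit on target genes with retinoid X receptors and swap corepressors for coactivators when the hormone binds.

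Deiodinases take iodine off the hormone with a selenocysteine in the active site, which is written in the messenger RNA by TGA, elsewhere a stop codon. The coding sequence around that codon is shown for both members because it is what the activating and the inactivating enzyme have in common. It comes from the GENCODE M21 transcripts on GRCm38, with the TGA in capitals. In Dio2 the codon is number 130 of the reading frame, in an exon on the minus strand of chromosome 12, from 90729823 to 90729825. In Dio3 it is codon 170, on the plus strand of chromosome 12, from 110279739 to 110279741.
Dio2: ggttcagccaccTGAccacctttcact
Dio3: ggcagctgtaccTGAccaccgttcatg
Of these 27 bases, 17 were the same in both genes. Dio2 has another annotated TGA codon in frame, at codon 263, near the end of the protein.

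Promoter windows of 250 bases before the start site (RefSeq, GRCm38.p6) were at hand for 5 of the 9 members, namely Slco1c1, Dio2, Dio3, Thrb and Klf9, with a second start for Thrb. The windows of Dio2 and Thrb are shown because these are deiodination and receptor genes whose libraries did not overlap between the genotypes. Letters searched on both strands were the half-site AGGTCA that nuclear receptors bind, the cAMP response element TGACGTCA and the TATA box TATAAA, and matches are in capitals. The window of Dio2 lies at chr12:90739039-90739288 on the minus strand. It holds the cAMP element starting 95 bases before the start site and a TATA box 30 bases before that site. The window of the first of these Thrb starts lies at chr14:17660710-17660959 on the plus strand, with a half-site 184 bases before that start. In GENCODE the Thrb gene begins at 17660261, upstream of this window, and the Dio2 gene ends at 90738438, so the start sites of the 2 annotations differ.
Dio2: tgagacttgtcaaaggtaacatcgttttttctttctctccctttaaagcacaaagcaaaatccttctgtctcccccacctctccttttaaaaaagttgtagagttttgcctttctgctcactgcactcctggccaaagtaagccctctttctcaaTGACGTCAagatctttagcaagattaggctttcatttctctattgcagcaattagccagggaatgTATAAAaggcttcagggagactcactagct
Thrb: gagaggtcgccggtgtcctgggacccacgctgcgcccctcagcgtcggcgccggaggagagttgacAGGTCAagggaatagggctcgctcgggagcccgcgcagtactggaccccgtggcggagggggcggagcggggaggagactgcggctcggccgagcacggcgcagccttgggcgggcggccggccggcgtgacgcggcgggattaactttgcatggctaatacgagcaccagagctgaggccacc
Over 32851 such windows of mouse genes, 1.55% held the cAMP element, 12.4% the TATA box and 14.0% the half-site. Dio3 held a TATA box 31 bases before its start and the second start of Thrb 1 at 167 bases, while the windows of Slco1c1 and Klf9 held none of the 3. These matches describe the letters only.

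Of the 8 genes other than Ttr, 7 were tested between genotypes and none passed, while Dio3 was too low for that test. The means of the 3 genes whose libraries lay apart differed by 13.4%, 18.0% and -14.4% from those of WT (Slco1c1, Dio2 and Thrb). Of the 7 that reached a mean of 1 FPKM in either genotype and were tested, 0 passed at an adjusted p of 0.05 (limma with Benjamini-Hochberg adjustment over 13195 loci), against 0.265% of all tested loci, and 3 had an unadjusted p under 0.05 (Slco1c1, Dio2 and Klf9), against 14.8% of all tested loci. The log2 change from WT to KO was above 0 for 3 and below 0 for 4 of the 7, with a median of -0.08, beside a median of 0.005 and 51.7% above 0 over all tested loci. WT and KO libraries were separate for 3 of the 7, for Slco1c1 and Dio2 with KO higher and for Thrb with KO lower, where 21.1% of all tested loci showed no overlap in either direction. Over all 13195 loci, 12 passed as higher and 23 as lower in KO, and 1947 had an unadjusted p under 0.05.

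Ttr, the carrier, was at 56.6, 52.0 and 60.7 FPKM in the libraries labelled KO, while WT replicates 1 and 2 were listed at 0 and WT replicate 3 at 0.091 FPKM. Every KO library was thus far above every WT library, and the KO mean of 56.4 ± 4.35 FPKM (SD, n = 3) was close to that of the transporter gene Slco1c1. No fold is given against a group listed at 0. Here and below, a listed 0 need not mean that a transcript was absent.

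**Figure D1:**
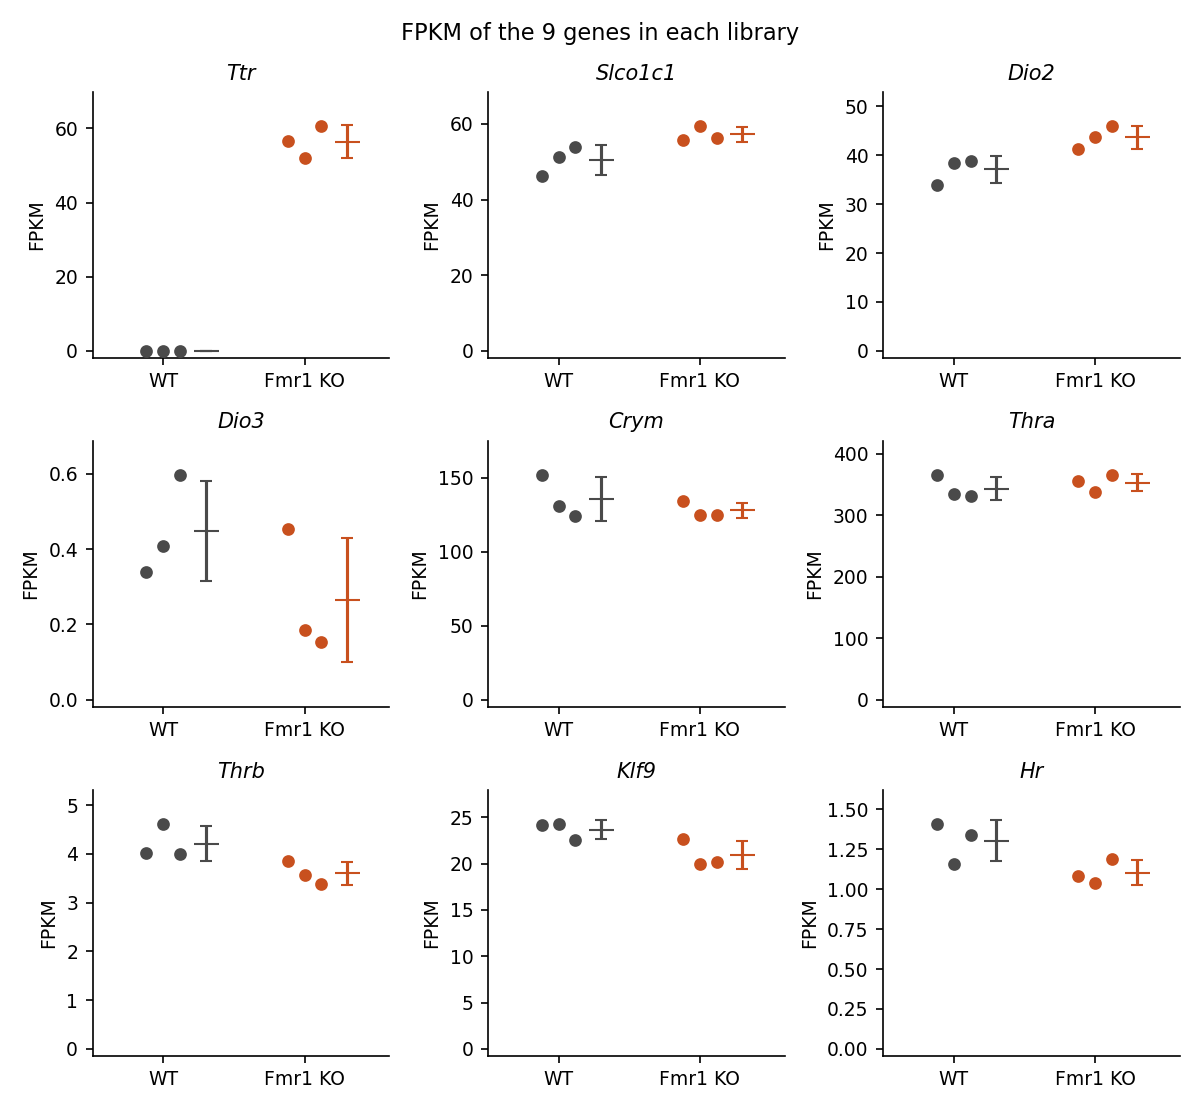
FPKM (y axis, linear, a scale of its own for each gene) of the 9 genes in the 3 WT (grey) and 3 *Fmr1* KO (orange) libraries, each point 1 library and the bar beside the points the mean with its SD. Ttr goes from at most 0.091 to at least 52.0 FPKM, while Slco1c1, Dio2 and Thrb are the only others whose points do not overlap between genotypes.

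The deposited interval of Ttr on chromosome 18 runs from 20558074 to 20674326 and is shared with Dsg2 and Gm16090, while the annotated Ttr gene covers 20665280 to 20674321 on the plus strand, 9042 bases, at its far end. Dsg2, a desmosomal cadherin gene in that interval, was at 0.139, 0.148 and 0.213 FPKM in WT and at 0.123, 0.126 and 0.08 in KO. The nearest locus downstream, Gm10269, was at 54.9, 53.8 and 64.0 FPKM in WT and at 61.5, 56.7 and 52.4 FPKM in KO. Neither of the 2 had a KO value above its highest WT value. Gm16090 and the nearest locus upstream, Gm46630, were listed at 0 in all 6 libraries.

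Outside Ttr, 2 loci were below 0.1 FPKM in every WT library and at 1 FPKM or more in every KO library. The reverse held for 0 loci. These predicted genes, Gm15446 on chromosome 5 (0 in WT, and 1.81, 1.97 and 1.68 FPKM in KO) and Gm33274 on chromosome 13 (0 in WT, and 1.56, 1.52 and 1.61 FPKM in KO), were far below the KO level of Ttr. They were also the loci most like Ttr over the 6 libraries, with Pearson r of log2(FPKM + 0.1) of 0.9966 and 0.9975. Next came Ddx3y, an RNA helicase gene of the Y chromosome (r = 0.9961), at 5.63, 5.4 and 5.63 FPKM in WT and at 8.71, 9.05 and 8.82 in KO. The sex of the pups behind each library is not given, so a difference in sex between the groups cannot be told apart from genotype. Ctnnb1, which encodes beta-catenin (r = 0.9936), and Gpsm1, a G protein modulator gene (r = 0.9926), completed the 5 most alike. Over 6 libraries such an r mostly restates a difference between genotypes. For the members it was 0.86 for Dio2, 0.81 for Slco1c1, 0.32 for Thra, -0.41 for Crym, -0.74 for Hr and -0.8 for both Thrb and Klf9.

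**Figure D2:**
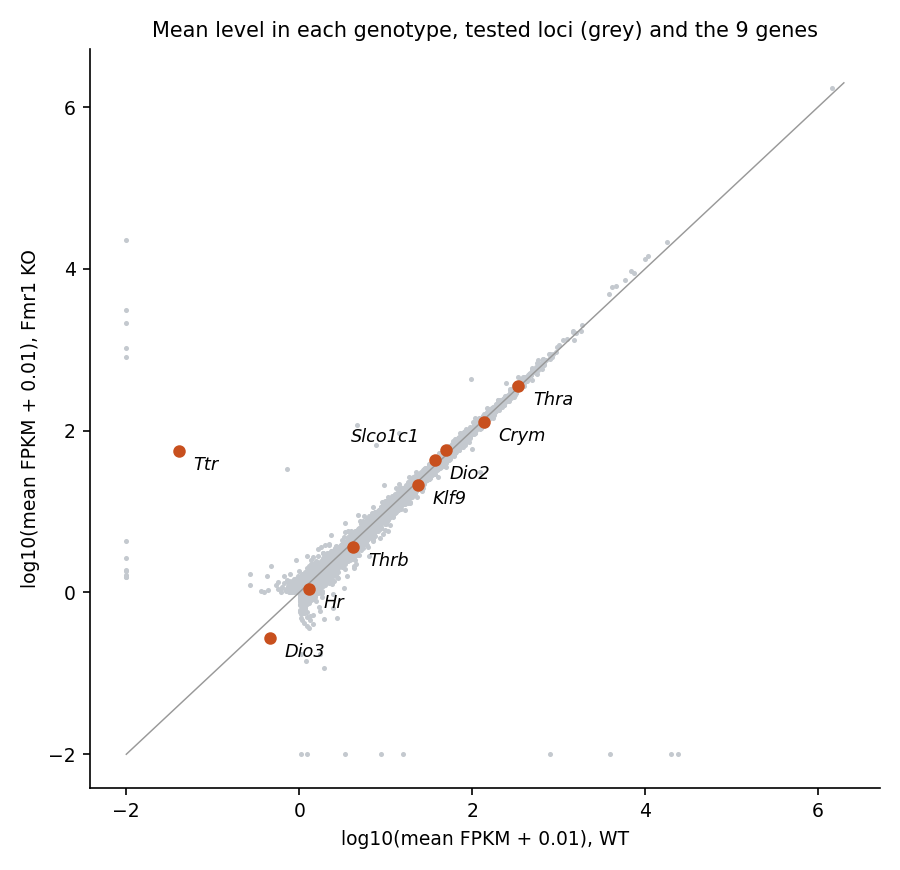
Mean of 3 libraries as log10(FPKM + 0.01) in WT (x axis) against *Fmr1* KO (y axis) for the tested loci (grey) and the 9 genes (orange, Dio3 being below the 1 FPKM minimum), with the line of equal levels. Of the 9 genes, Ttr alone lies far from the line, at a mean of 0.0303 in WT and 56.4 FPKM in KO, and points at -2 have a mean listed at 0 in that genotype.

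The other carriage genes did not have the pattern of Ttr. Rbp4, the blood carrier of retinol that travels bound to transthyretin, was at 4.94, 3.83 and 4.06 FPKM in WT and at 3.29, 3.06 and 2.75 FPKM in KO. Each KO library lay below each WT library. The log2 change was -0.48 (SE 0.12, limma with Benjamini-Hochberg adjustment, adjusted p = 0.14), which did not pass, and it ranged from -0.55 to -0.37 with any 1 library left out. Alb (albumin) and Serpina7 (thyroxine-binding globulin), the other carriers of thyroxine in blood, were listed at 0 in all 6 libraries. Stra6, which encodes the retinol-binding protein receptor, was between 0.695 and 0.96 FPKM and was not tested.

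Because the choroid plexus is the main source of transthyretin in the brain, 19 other choroid plexus markers were set beside Ttr. Of the 17 that did not reach the 1 FPKM minimum, 8 were higher in every KO than in every WT library and 0 were lower, where 3.32% of the 13786 loci above 0 but below the minimum were higher in that way. Clic6, a chloride channel family gene, was at 0.0941, 0.0704 and 0.0625 FPKM in WT and at 0.614, 0.386 and 0.704 FPKM in KO. Wfdc2, a secreted protease inhibitor family gene, was at 0, 0.0927 and 0.295 FPKM in WT and at 0.77, 0.56 and 0.78 in KO. The potassium channel gene Kcnj13 was listed at 0, 0 and 0.0156 FPKM in WT and at 0.0695, 0.107 and 0.14 in KO. The others were Tmem72, Otx2, Cldn2, Aqp1 and Trpv4, and the highest of their KO values was 0.709 FPKM, for Cldn2. All 8 stayed below 1 FPKM in both genotypes, and how their levels relate to that of Ttr was not tested.

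The defining marker Kl (klotho) was listed at 0 in all 6 libraries, which need not mean that its transcript was absent. The folate receptor gene Folr1 overlapped, at 1.16, 0.687 and 0.487 FPKM in WT and 1.39, 0.534 and 1.63 in KO. Enpp2, which other brain cells also express, was the marker with the highest level, at 13.7 to 15.9 FPKM in WT and 14.9 to 16.8 in KO. Without it, the markers other than Ttr summed to 3.16, 2.52 and 2.97 FPKM in WT and to 5.96, 5.01 and 6.19 in KO. The sums therefore moved with genotype in every library, and their part in the Ttr difference was not tested.

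**Figure D3:**
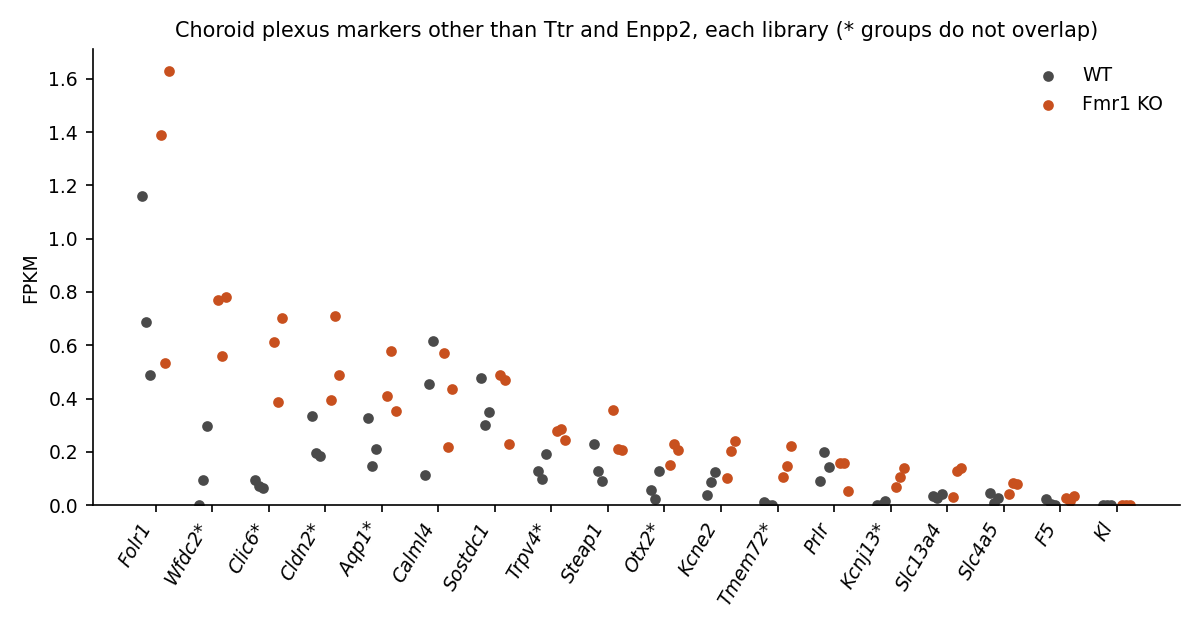
FPKM (y axis, linear) of 18 choroid plexus markers other than Ttr and Enpp2 in each WT (grey) and *Fmr1* KO (orange) library, ordered by the KO mean. The 8 genes with an asterisk have all KO points above all WT points, and apart from Folr1 no point reaches 1 FPKM.

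Liver and retinal pigment epithelium also make transthyretin, and their markers were read in the same way. The liver and yolk sac genes summed to 0.505 to 3.68 FPKM in WT and 1.51 to 2.09 in KO, with Alb, Afp and Serpina1a listed at 0 throughout and Apoa2 the highest. Of the retinal pigment epithelium genes, Mlana was listed at 0, and the list's sum of 25.4 to 28.1 FPKM in WT and 31.8 to 32.6 in KO was nearly all Rlbp1. Rlbp1, a retinal-binding protein gene that glia use too, was at 27.8, 24.8 and 27.5 FPKM in WT and at 31.7, 31.8 and 32.3 in KO, without overlap. It did not pass the test (limma with Benjamini-Hochberg adjustment, adjusted p = 0.106).

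Entry into cells was represented by Slco1c1, an organic anion transporter with high affinity for thyroxine, found in brain endothelium and astrocytes. Its FPKM was 46.2, 51.2 and 54.0 in WT and 55.7, 59.5 and 56.4 in KO. The groups lay close together without overlap, the lowest KO library just above the highest WT library. The KO mean of 57.2 ± 2.04 FPKM was 13.4% above the WT mean of 50.5 ± 4.0 FPKM (SD, n = 3 each). On the log2(FPKM + 0.1) scale the change was 0.18 (SE 0.06, 95% interval 0.04 to 0.33), and it did not pass (limma with Benjamini-Hochberg adjustment, adjusted p = 0.251).

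Cells known to use Slco1c1 and Dio2 were gauged by their markers. The 10 astrocyte markers summed to 1750, 1850 and 2070 FPKM in WT and to 1810, 1920 and 2010 FPKM in KO, with 5 above and 5 below a log2 change of 0. The groups overlapped in this sum, whose part in the levels of Slco1c1 and Dio2 was not tested. Of the 10, 0 were higher in every KO library and 2 were lower, beside 21.1% of all tested loci without overlap in either direction, and of these 2 the gap junction gene Gjb6 passed (8.55 ± 0.553 FPKM in WT and 4.7 ± 0.457 in KO, SD, n = 3 each, limma with Benjamini-Hochberg adjustment, adjusted p = 0.00679, and 0.000141 to 0.0565 over the processing alternatives). The 10 endothelial markers summed to 3.09 to 3.56 FPKM in WT and 2.28 to 2.86 in KO, with the tight junction gene Cldn5 listed at 0 throughout and Kdr the highest. A listed 0 need not mean that the Cldn5 transcript was absent. In bulk RNA, fewer cells of a type and less RNA per cell cannot be told apart.

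Of 8 other transporter genes in a list, 4 were tested and 0 passed, with 3 above and 1 below a log2 change of 0 and a median of 0.00. Slc7a5 and its partner Slc3a2, the large neutral amino acid transporter that also carries thyroid hormones, were at 84.1 to 89.7 and at 109 to 120 FPKM over the 6 libraries. Slc7a5 had a log2 change of 0.01 (SE 0.05, limma with Benjamini-Hochberg adjustment, adjusted p = 0.958). Its sign turned with libraries rescaled without Bc1 and when WT replicate 1, WT replicate 2 or KO replicate 2 was left out. Slc7a8, a related amino acid transporter, was at 34.2, 34.8 and 32.6 FPKM in WT and at 32.5, 30.5 and 30.1 FPKM in KO. The groups did not overlap, and the log2 change of -0.13 (SE 0.05, limma with Benjamini-Hochberg adjustment, adjusted p = 0.314) did not pass.

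The other 4 transporters in the list stayed below 1 FPKM and were not tested. Slco2b1, an organic anion transporter gene, was at 0.379, 0.272 and 0.157 FPKM in WT and at 0.121, 0.124 and 0.0545 FPKM in KO. Slco4a1, of the same family, was at 0.571, 0.405 and 0.335 FPKM in WT and at 0.259, 0.287 and 0.202 FPKM in KO. Every KO library was below every WT library for both, as for 4.71% of the loci above 0 but below the minimum. Slco1a4, a transporter gene of brain endothelium, lay the other way at still lower levels, at 0.017, 0 and 0.0136 FPKM in WT and at 0.0273, 0.0559 and 0.107 FPKM in KO. Slc16a10, an aromatic amino acid transporter gene, overlapped, at 0.437 to 0.559 FPKM in WT and 0.378 to 0.442 in KO.

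Among the deiodinases, Dio2 had the lowest adjusted p of the tested members. This activating enzyme's gene was at 34.0, 38.4 and 38.8 FPKM in WT and at 41.3, 43.8 and 46.0 FPKM in KO. Each KO library was above each WT library, and the KO mean of 43.7 ± 2.34 FPKM was 18.0% above the WT mean of 37.1 ± 2.67 FPKM (SD, n = 3 each). The log2 change was 0.24 (SE 0.07, 95% interval 0.09 to 0.39), which did not pass (limma with Benjamini-Hochberg adjustment, adjusted p = 0.17). It stayed between 0.18 and 0.28 with any 1 library left out, and 11.5% of all tested loci had a change at least as large in size. The interval of Dio2 in the table, 90724552 to 90812245 on chromosome 12, is shared with the noncoding Gm26512, which was at 1.13 to 2.48 FPKM.

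Dio3, the inactivating enzyme and an imprinted gene, was near the limit of these libraries. Its levels were 0.34, 0.408 and 0.597 FPKM in WT and 0.454, 0.186 and 0.153 FPKM in KO. The groups overlapped through the first KO library, and the KO mean of 0.264 ± 0.165 FPKM differed from the WT mean of 0.448 ± 0.133 FPKM by -0.184 FPKM (two-sided exact permutation test, p = 0.3, n = 3 each, where 0.1 is the smallest p this design allows). Dio1, the deiodinase of liver and kidney, was listed at 0 in 5 libraries and at 0.103 FPKM in KO replicate 3.

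The ratio of Dio2 to Dio3 was 99.8, 94.2 and 65.0 in WT and 91.0, 236 and 301 in KO. The WT libraries fell within a narrow band, whereas the KO libraries spread widely, with the first among the WT values, as Dio3 itself did. The ratio of Dio2 to Slco1c1, which shares a cell type with it, was steadier, at 0.736, 0.75 and 0.718 in WT and 0.742, 0.736 and 0.815 in KO. Of the 5 genes in the deiodination list, Dio1 among them, 4 were tested and 0 passed, with 3 above and 1 below a log2 change of 0 and a median of 0.04. Wsb1, which marks the Dio2 enzyme for degradation, had a log2 change of 0.10 (SE 0.05, limma with Benjamini-Hochberg adjustment, adjusted p = 0.462). Sephs2, needed for the synthesis of selenoproteins, had one of -0.17 (SE 0.09, limma with Benjamini-Hochberg adjustment, adjusted p = 0.389).

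Crym encodes mu-crystallin, which binds triiodothyronine in the cytosol. It was the second most abundant member, at 152, 131 and 124 FPKM in WT and at 134, 125 and 125 FPKM in KO. All KO libraries lay within the WT range, which WT replicate 1 set at its upper end. On the log2 scale the change was -0.08 (SE 0.08, 95% interval -0.25 to 0.10, limma with Benjamini-Hochberg adjustment, adjusted p = 0.687), and it was 0.01 without WT replicate 1.

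The receptors differed greatly in level, and neither passed the test between genotypes. Thra, whose main products are the receptor TR alpha and a splice form that does not bind hormone, was at 365, 334 and 331 FPKM in WT and at 356, 338 and 366 FPKM in KO. The ranges nearly coincided. Its log2 change was 0.04 (SE 0.05, 95% interval -0.08 to 0.17, limma with Benjamini-Hochberg adjustment, adjusted p = 0.779), and Thra had the lowest coefficient of variation over the 6 libraries of the 9 genes, 4.54%. The 3' end of Thra overlaps Nr1d1 on the opposite strand over 1075 bases, from 98767932 to 98769006 on chromosome 11. Whether reads were assigned by strand is not given in the sources used here, so reads there cannot be told apart.

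Thrb, which encodes the receptor TR beta, was at 4.01, 4.62 and 4.0 FPKM in WT and at 3.86, 3.56 and 3.39 FPKM in KO. It was the lone tested member with every KO library below every WT library, and the gap between 4.0 and 3.86 was narrow. The KO mean was 3.61 ± 0.236 against 4.21 ± 0.355 FPKM in WT (SD, n = 3 each). The log2 change was -0.22 (SE 0.10, 95% interval -0.43 to 0.00, limma with Benjamini-Hochberg adjustment, adjusted p = 0.341) and ranged from -0.27 to -0.15 with any 1 library left out. The study's own differentially expressed genes, from Cuffdiff, include Thrb as lower in KO. That test and its threshold differ from those used here. Per length, Thra exceeded Thrb 91.2, 72.4 and 82.6 times in WT and 92.2, 94.8 and 108 times in KO, so that the lowest KO ratio lay just above the highest WT ratio.

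The partners of the receptors leaned slightly above 0 without passing. Of 15 retinoid X receptors, corepressors and coactivators, 13 were tested and 0 passed, with 11 above and 2 below a log2 change of 0 and a median of 0.07. Over all tested loci, 51.7% were above 0 and the median was 0.005. Crebbp, a coactivator with acetyltransferase activity, was at 8.01, 8.45 and 8.47 FPKM in WT and at 8.99, 8.94 and 9.57 FPKM in KO, a log2 change of 0.14 (SE 0.06, limma with Benjamini-Hochberg adjustment, adjusted p = 0.347). Its groups did not overlap, and neither did those of Med1, a Mediator subunit that the receptors contact, with 0.12 (SE 0.07, limma with Benjamini-Hochberg adjustment, adjusted p = 0.464). Rxra, a dimer partner of both receptors, lay the other way, at 6.66, 6.73 and 7.77 FPKM in WT and 6.14, 6.27 and 6.3 FPKM in KO (log2 change -0.17, SE 0.08, limma with Benjamini-Hochberg adjustment, adjusted p = 0.355). Of the 13, 2 were thus higher and 1 lower in KO without overlap, beside 21.1% of all tested loci in either direction. Rxrb and the corepressor subunit gene Gps2, which most cells use, were listed at 0 in all libraries, so a listed 0 in this table need not mean that a transcript was absent.

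The target genes among the members had lower means in KO and overlapping libraries. Klf9, a zinc finger transcription factor induced by triiodothyronine in neurons, was at 24.2, 24.3 and 22.5 FPKM in WT and at 22.7, 20.0 and 20.2 FPKM in KO. KO replicates 2 and 3 were below the WT range and KO replicate 1 within it. The log2 change was -0.17 (SE 0.07, 95% interval -0.32 to -0.02), which did not pass (limma with Benjamini-Hochberg adjustment, adjusted p = 0.274). Hr, a corepressor whose gene is a direct target of the hormone in the developing brain, was at 1.41, 1.16 and 1.34 FPKM in WT and at 1.08, 1.04 and 1.19 FPKM in KO. The groups overlapped by a small margin through WT replicate 2 and KO replicate 3. This gave a log2 change of -0.22 (SE 0.17, 95% interval -0.60 to 0.16, limma with Benjamini-Hochberg adjustment, adjusted p = 0.585).

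A wider list of 16 genes known to respond to thyroid hormone in brain or liver gave 12 tested genes, of which 0 passed (limma with Benjamini-Hochberg adjustment), 3 had an unadjusted p under 0.05 (14.8% of all tested loci did), and all 12 had a log2 change below 0. Their median was -0.09, beside 0.005 for all tested loci, and the libraries did not overlap for 3 of the 12, all lower in KO, beside 21.1% of all tested loci in either direction. Nefh, the heavy neurofilament gene, was at 9.13, 9.64 and 9.27 FPKM in WT and at 7.58, 7.58 and 7.82 FPKM in KO (log2 change -0.28, SE 0.06, limma with Benjamini-Hochberg adjustment, adjusted p = 0.0925). It was the gene of this list with the clearest gap between the groups.

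Rasd2, a small GTPase gene abundant in the striatum, was at 4.57, 4.17 and 3.84 FPKM in WT and at 3.53, 3.71 and 3.18 FPKM in KO. Its log2 change was -0.27 (SE 0.10, limma with Benjamini-Hochberg adjustment, adjusted p = 0.275). Dbp, a clock output transcription factor, was at 24.2, 21.5 and 23.1 FPKM in WT and at 19.8, 19.3 and 18.9 FPKM in KO, with -0.24 (SE 0.06, limma with Benjamini-Hochberg adjustment, adjusted p = 0.13). The malic enzyme gene Me1, at 49.3 to 55.1 FPKM over the 6 libraries, was nearest to 0 with -0.01, and its sign turned when WT replicate 1 or KO replicate 3 was left out. Of the 16 genes, 5 (Mag, Mbp, Mobp, Nrgn and Reln) also mark a cell type, so the list does not read hormone action alone. Whether the hormone raises or lowers each gene was not taken into account, and Nr1d1, which overlaps Thra, is among the 12 tested. The count below 0 was 11 of 12 with any 1 library left out and 14 of 15 with no FPKM minimum.

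**Figure D4:**
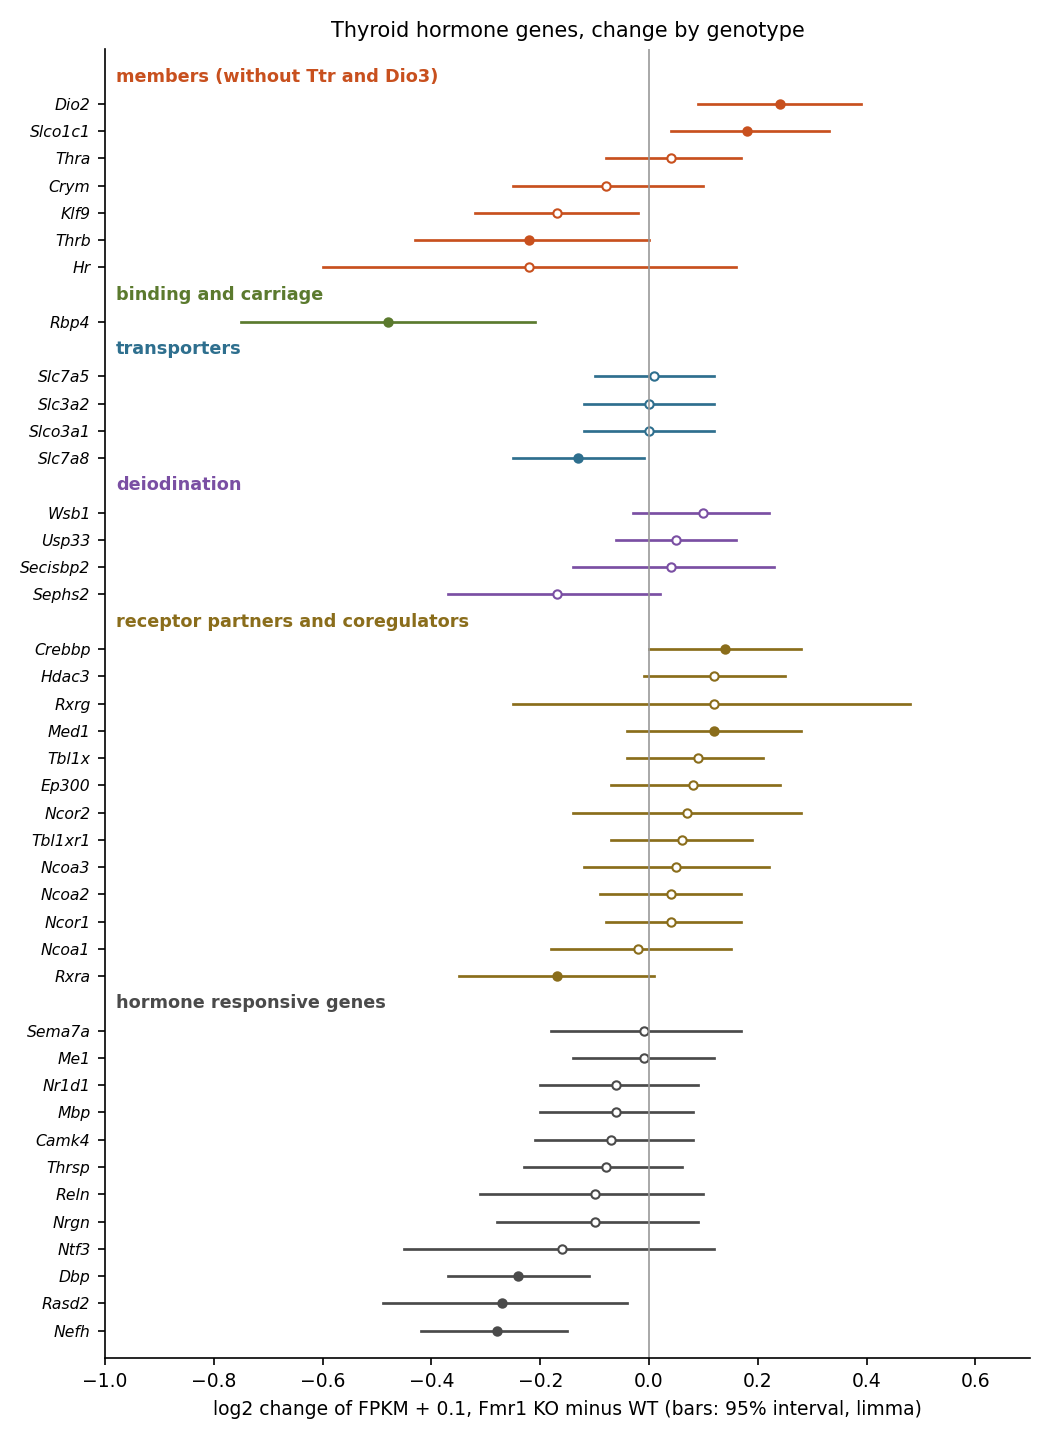
Log2 change of FPKM + 0.1 from WT to *Fmr1* KO (x axis; points, with 95% limma intervals as bars) for the tested members other than Ttr and for the tested genes of the 5 pathway lists, filled where the libraries of the genotypes do not overlap. Members lie between -0.22 and 0.24, the 12 hormone-responsive genes all lie below 0, and no gene shown passed at an adjusted p of 0.05.

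By level, the members kept nearly the same order in both genotypes. In WT it ran from Thra through Crym, Slco1c1, Dio2, Klf9, Thrb, Hr and Dio3 to Ttr, and the ranges of no neighbours overlapped. In KO the order of the other 8 was the same, with Ttr placed between Slco1c1 and Dio2. The KO ranges of Ttr and Slco1c1 overlapped, and those of the other neighbours did not. Taking the 5 pathway lists together, 34 of 48 genes were tested, 0 passed and 5 had an unadjusted p under 0.05, near the 14.8% of all tested loci, with 17 above and 17 below a log2 change of 0.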

How the data were processed

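Reads were cleaned by the authors with Fastx Clipper and sickle, aligned to GRCm38 by TopHat2 and passed through Cufflinks and Cuffdiff. The sources used here do not give tool versions, annotation, strandedness or library scaling. The deposited table holds FPKM per library for 48100 rows (462 without a symbol). Its 5 other columns, the authors' group FPKM, log2 fold change, p and q, were not used. No count test was run, since FPKM are normalized values. Loci with a mean of at least 1 FPKM in either genotype (13195) were tested on log2(FPKM + 0.1) with limma 3.58.1 (R 4.3.3, mean-variance trend, genotype as the only term, two-sided, Benjamini-Hochberg adjustment over all tested loci). On this scale the change of low genes is understated. The fit was tested on simulated data. Dio3 was compared by an exact permutation test (scipy 1.17.1). Groups and replicate numbers came from the sample labels.

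The members, the 5 pathway lists and the 11 cell type lists were chosen with earlier results of these data known. Some list genes are not reported here and are in no count of a list. Named were all members and Fmr1, and in each pathway list any gene that passed, the extremes and up to 5 genes without overlap. Named too were the 2 highest genes of a cell type list, choroid plexus markers with a mean of 1 FPKM, Rbp4 and Alb. The rest were loci below 0.1 FPKM in 1 genotype and at 1 FPKM or more in the other, the 5 loci most like Ttr, and neighbours. Choroid plexus and transporter genes below 1 FPKM, Gjb6, C1qa, genes listed at 0 and list members given only by their range were named after their values were seen. The alternatives tried were a pseudocount of 0.01 or 1, an FPKM minimum of 5 or none, libraries centred or rescaled without Bc1, no trend, the replicate number as a block, and each library left out.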

Additional observations from a re-analysis of the deposited data

How the results depend on the processing

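None of the 7 tested members and none of the 34 pathway genes passed under any of the 14 alternatives, and the lowest adjusted p of a member (limma with Benjamini-Hochberg adjustment) lay between 0.0624, for Dio2 with the replicate number as a block, and 1.0, with libraries rescaled without Bc1. That rescaling moved the median of all loci from 0.005 to -0.026. Directions turned for Crym without WT replicate 1 (0.01; range -0.14 to 0.01 with any 1 library left out), Slc7a5 rescaled without Bc1 (-0.02) or without WT replicate 1 or 2 (both -0.00) or KO replicate 2 (-0.02; range -0.02 to 0.03), and Me1 without WT replicate 1 (0.03) or KO replicate 3 (0.03; range -0.04 to 0.03). The other 255 of 262 values over 19 genes kept direction and side of the threshold. With a minimum of 5 FPKM, Thrb, Hr, Rbp4 and Rasd2 were not tested. The count of loci that passed, 35 of 13195, was 15 with no FPKM minimum, 54 with a minimum of 5, 88 rescaled without Bc1, 21 without the trend, and 14 to 20 with any 1 library left out; the causes were not tested. With the replicate number as a block it was 65. The deviations of same-numbered libraries had correlations of 0.243, 0.0577 and 0.0801, and those of different-numbered libraries lay between -0.152 and 0.0781. KO replicate 2 was closest to WT replicate 3 (0.0781). No label pairs the libraries, so the numbers were not taken as pairs, though these values do not exclude pairing. Depth is unknown, so the spread of 3 libraries sets the precision and a level under 1 FPKM is uncertain.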

Other observations

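Other cell type lists lay apart to different degrees. The 10 microglia markers summed to 5.48 to 7.99 FPKM in WT and 1.37 to 2.47 in KO, and 7 were lower in every KO than in every WT library. These were all 4 that were tested, beside 21.1% of all tested loci without overlap in either direction, and 3 below the minimum, where 4.71% of loci above 0 were lower in that way. The lysozyme gene Lyz2 was at 1.66, 1.29 and 2.31 FPKM in WT and 0.0614, 0.314 and 0.124 in KO (limma with Benjamini-Hochberg adjustment, adjusted p = 0.0359, and 2.49e-10 to 0.151 over the processing alternatives). C1qa, a complement gene, was at 1.81, 1.0 and 1.49 FPKM in WT and 0.595, 0 and 0.602 in KO. The 6 ependymal markers summed to 9.09 to 11.6 FPKM in WT and 5.41 to 7.27 in KO, with 4 lower without overlap, 3 of them among the 4 tested and 1 below the minimum, and Rarres2 and Mia were the highest. The 8 meninges and fibroblast markers, led by Dcn and Ptgds, summed to 48.6 to 52.5 FPKM in WT and 39.7 to 47.9 in KO. Most of that sum was Dcn, at 39.0 to 43.8 FPKM in WT and 30.1 to 39.0 in KO. Of the 3 tested, 0 lay apart. Below the minimum, 2 markers were higher in every KO library and 0 were lower, where 3.32% of loci above 0 were higher in that way.

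The 9 oligodendrocyte lineage markers summed to 340 to 396 FPKM in WT and 391 to 432 in KO, with Olig1 highest and Olig2 at 68.7, 66.4 and 75.6 FPKM in WT and 81.8, 80.6 and 87.3 in KO (limma with Benjamini-Hochberg adjustment, adjusted p = 0.133). Excitatory markers, led by Camk2a and Slc17a7, summed to 1130 to 1180 FPKM in WT and 1160 to 1230 in KO. Inhibitory markers, led by Sst and Gad1, summed to 364 to 381 in WT and 339 to 386 in KO. Of 10 tested excitatory markers, 2 were higher and 3 lower in KO without overlap. Of 9 tested inhibitory markers, 2 were higher and 1 lower in that way, beside 21.1% of all tested loci in either direction. The part of these differences in the thyroid hormone genes was not tested.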
